A study of Mus musculus with 10 samples.

Results

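The 2 pre-amplified Array B cards of a quantitative RT-PCR array (qPCR-array) were set against 2 microarrays, miRNA by miRNA. Array B carried 182 assays for mouse miRNAs, and 181 of them, 110 for star strands and 71 others, had a microarray probe of the identical name among 617 mouse probes once the 7-digit assay number was removed. Only miR-801 had no such probe. The series held 10 samples in all, which were aliquots of a single total RNA from proliferating C2C12 cells, a mouse myoblast line grown in serum-containing medium with no other treatment. The cards took cDNA that had been pre-amplified by PCR with the pool of Array B primers before the TaqMan assays were run. Each microarray took 8 μg of RNA and carried every probe as 5 spots. The 4 cards of Array A, which carries the better known miRNAs, and 2 Array B cards without pre-amplification entered for comparison. Since neither the cells nor the RNA were replicated, all spreads and p-values below measure technical variation only.

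A miRNA is cut from a hairpin precursor as a duplex, of which the guide strand is usually kept in the silencing complex and the other, the star strand, is mostly degraded. The guide finds its target mRNAs mainly through its seed, the bases next to its 5′ end. In muscle cells, miR-206 belongs to the miR-1 family that promotes myoblast differentiation, and its level rises as myoblasts fuse.

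RefSeq (GRCm38.p6) held a mature sequence equal to the deposited target for 149 of the 181 miRNAs and for 11 of the 18 detectable by both platforms. The sequences below are shown because they carry the comparison, first miRNAs found by both platforms whose places are compared below, then the most intense miRNA of the microarray that the cards did not amplify and the most abundant one of the cards that the microarray did not show. Capitals mark the seed, bases 2 to 8.
miR-206 (chr1:20679055-20679076, plus strand): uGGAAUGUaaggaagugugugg
miR-690 (chr16:28599940-28599961, minus strand): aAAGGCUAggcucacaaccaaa
miR-877 (chr17:35960795-35960814, minus strand): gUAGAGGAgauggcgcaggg
miR-34c* (chr9:51103044-51103065, minus strand): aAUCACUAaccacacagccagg
miR-322* (chrX:53054269-53054289, minus strand): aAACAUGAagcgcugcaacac
miR-674* (chr2:117185186-117185207, plus strand): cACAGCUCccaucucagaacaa
miR-762 (chr7:127708534-127708555, plus strand): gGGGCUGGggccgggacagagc
miR-31* (chr4:88910577-88910599, minus strand): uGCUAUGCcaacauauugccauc
No seed was shared among these 8. The next 4 are star strands of near-identical sequence, and capitals mark the base that differs in the miR-30 pair and all bases from the first difference on in the miR-24 pair.
miR-30a* (chr1:23272315-23272336, plus strand): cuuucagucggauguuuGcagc
miR-30e* (chr4:120772618-120772639, minus strand): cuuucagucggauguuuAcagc
miR-24-1* (chr13:63301213-63301235, plus strand): gugccuacugagcugaUAUCAGU
miR-24-2* (chr8:84208839-84208860, plus strand): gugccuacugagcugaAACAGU

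The endogenous control MammU6 had a Ct, the cycle at which a well crosses the threshold, of 13.8 on card 1 and 14.0 on card 2, and the plant control ath-miR159a stayed at 40, the value of an undetermined well, on both. On the microarrays, 4 of 8 muscle miRNAs (miR-206, miR-133a, miR-133b and miR-486) reached a signal of 32 on each, whereas miR-1, miR-499, miR-208a and miR-208b did not. Neither did any of 17 markers of liver, neurons, blood, epithelium, endothelium or pancreas or of 21 miRNAs of embryonic stem cells. Array A read some of the same markers as detectable. With a mean Ct of 35 or less it showed 3 of 6 muscle miRNAs with an assay, 0 of 11 of embryonic stem cells and 5 of the 17 of other cell types, which were the neuronal miR-9 (28.9 ± 0.118, SD, n = 4 cards), miR-142-3p and miR-223 of blood cells, the endothelial miR-126-3p and the pancreatic miR-375 (34.6 ± 1.06). The summed signal of the 8 muscle miRNAs was 3859 and 5958 on the 2 arrays, nearly all of it from miR-206, against 269 and 358 for the 17 markers of other cell types. A total of 595 empty spots per array had an SD of 19.3 and 15.1 density units, so the limit of 32 used here lies below 3 SD of blank glass, which is 57.9 and 45.3. Of 905 matched spots, 85 and 69 stood at the deposited minimum of 1.

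Pre-amplified Array B detected far more of the same miRNAs than the microarray did. With a mean Ct of 35 or less, the cards detected 96 of 181 (53.0%, 95% Wilson interval 45.8 to 60.2), and the microarray detected 22, for which a signal of at least 32 was needed on each array (12.2%, interval 8.17 to 17.7). The microarray share for these miRNAs was below that of all mouse probes, of which 137 of 617 (22.2%) were detectable, and of the 436 probes without an Array B match, of which 115 (26.4%, interval 22.5 to 30.7) were. By both platforms 18 miRNAs were detectable, by the cards only 78, by the microarray only 4, and by neither 81. A total of 68 miRNAs were undetermined on both cards and 11 on 1 card, and none of these 11 had a mean Ct of 35 or less. These shares are over miRNAs of 1 RNA sample, and their intervals cover counting error only.

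At the Ct limit, miR-697 (34.2 and 33.2) and miR-330* (34.7 and 34.2) were just inside, and miR-30b* (36.8 and 34.1) and miR-10a* (36.7 and 34.3) just outside. At the signal limit, miR-374 (32.4 and 183) and miR-702 (35.2 and 35.4) were just inside. Just outside were miR-483* (31.6 and 33.2) and miR-28* (34.9 and 31.6), each held out by 1 array alone. Of the 78 miRNAs detectable by the cards only, 8 likewise reached a signal of 32 on a single array.

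Among the 18 miRNAs detectable by both, miR-709 and miR-206 led both lists. MiR-709 came up at a Ct of 15.59 and 15.97 on the 2 cards, with a signal of 52112 and 58037 on the 2 arrays. Its ΔCt (Ct minus that of MammU6 on the same card, so that low values mean abundance) was 1.87 ± 0.115 (SD, n = 2 cards). Of its 10 spots, 9 had a signal from 55973 to 59542, and it held the highest spot of each array (59542 and 59464), so that its signal may be a lower bound. Saturation of the scanner was not tested. MiR-206, the muscle miRNA, followed with Ct values of 17.4 and 17.7, a ΔCt of 3.64 ± 0.0933 and signals of 3570 and 5499. No other matched miRNA reached these levels in any library. The other matched muscle strand, miR-133a*, was undetermined on both cards and had signals of 10.8 and 9.62, while its guide miR-133a, which promotes myoblast proliferation, had signals of 33.8 and 109 on the same arrays.

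The next places differed between the platforms. Among the 18 the cards put miR-720 in place 3, at a Ct of 18.74 and 18.96, followed by miR-699 (18.79 and 19.26), miR-374 (18.94 and 19.29) and miR-805 (19.08 and 19.50). On the arrays miR-720 had signals of 124 and 91.0, miR-699 of 90.9 and 37.4 and miR-374 of 32.4 and 183, which by mean log2 signal put them in places 9, 15 and 14 of the 18. The ranges of miR-699 and miR-374 on the arrays overlapped, and miR-374 differed 5.65-fold between the 2 arrays, more than any other of the 18. MiR-805 had signals of 528 and 967, in places 4 and 3. MiR-690 had Ct values of 20.38 and 20.92 and signals of 1562 and 429, a ratio of 0.274 between array 2 and array 1, and stood in place 8 on both cards, in place 3 on array 1 and, below miR-805, in place 4 on array 2.

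Of the middle range, 3 miRNAs have a known role or origin. MiR-378, a miRNA from an intron of Ppargc1b that represses the myogenic inhibitor MyoR, had a Ct of 20.3 and 20.8 and signals of 381.8 and 290.4. MiR-22, which slows the cell cycle, had a Ct of 21.7 and 22.1 and signals of 104 and 78.7. MiR-877, made from a short intron of Abcf1 by splicing, had a Ct of 25.2 and 25.5 and signals of 130.3 and 153.8. The cards ordered these as miR-378, miR-22 and miR-877 without overlap, whereas on the arrays miR-877 lay above miR-22, also without overlap.

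A total of 6 star strands were detectable by both platforms. MiR-24-2* had a Ct of 20.8 and 21.4 and signals of 68.8 and 113, and miR-674* had 23.0 and 23.4 and signals of 108 and 87.6. MiR-34c*, from a hairpin that p53 induces, had 23.2 and 23.5 and signals of 107 and 120. The 3 overlapped on the arrays, whereas on the cards miR-24-2* lay below both others. Those overlapped in Ct across the cards, with miR-674* in place 11 and miR-34c* in place 12 of the 18 on each card. MiR-322*, from a hairpin induced during myoblast differentiation, had 23.4 and 23.9 and signals of 83.7 and 87.2. MiR-27b* had 25.8 and 26.2 and signals of 49.4 and 37.7, and its guide is known to repress Pax3 in muscle progenitors. Let-7d* had the highest mean Ct of the 18, with 31.7 and 31.3 (miR-715 was higher on card 2), and signals of 63.7 and 217, in place 14 on array 1 and place 6 on array 2. The last pair by qPCR besides let-7d* were miR-702 (29.26 and 29.96, with signals of 35.2 and 35.4) and miR-715 (30.001 and 31.95, with signals of 50.5 and 35.8).

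**Figure D1:**
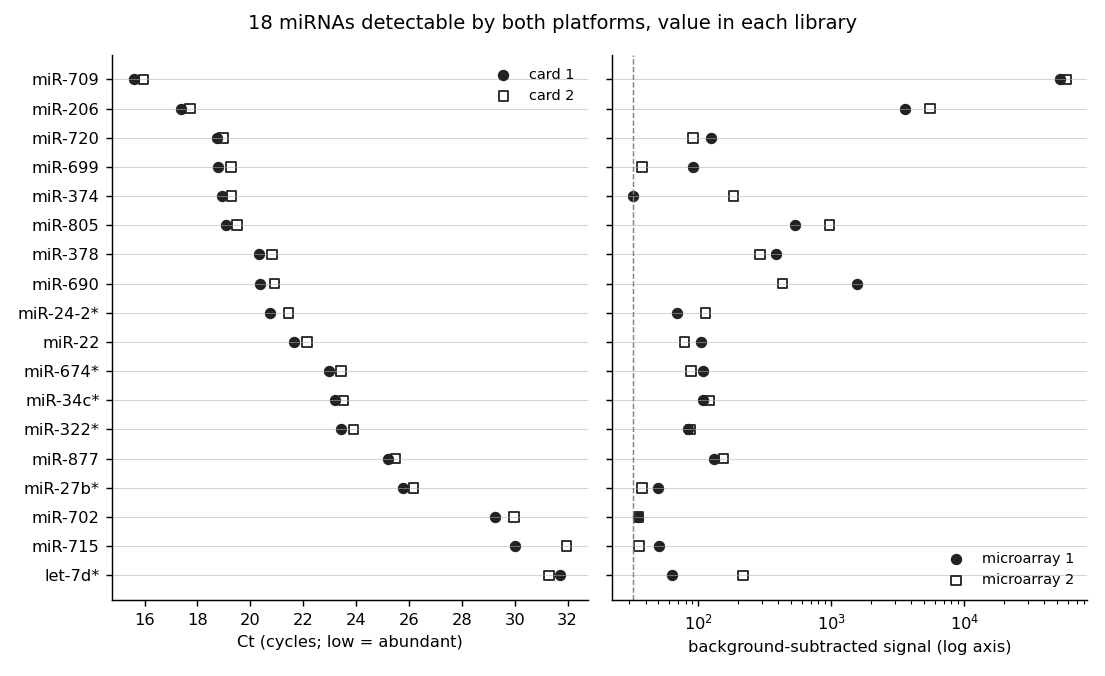
Value of each of the 18 miRNAs detectable by both platforms, ordered by ΔCt, with Ct in cycles on the 2 pre-amplified cards (left) and background-subtracted signal on a log axis on the 2 microarrays (right, dashed line at 32). The cards lie close together for all but miR-715, whereas miR-374, let-7d* and miR-690 differ several-fold between the arrays, and after miR-206 the signals no longer follow the order of Ct.

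For the 18, ΔCt of the 2 cards differed by a median of 0.248 cycles, and 17 of 18 had the higher Ct on card 2, as MammU6 did. Between the arrays the median difference was 0.42 on the log2 scale, and 14 of 18 lay within 2-fold of each other. Array 2 gave the higher signal for 10 of the 18 but for 68 of all 96 miRNAs that the cards detected.

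The 78 miRNAs detectable by the cards only included several with low ΔCt. MiR-31*, partner of a guide that represses the myogenic factor Myf5, had a Ct of 18.3 and 18.8, rank 3 by ΔCt among all matched miRNAs (4.63 ± 0.169), and signals of 24.95 and 21.32. MiR-149 had a Ct of 19.4 and 19.7 and signals of 18.1 and 39.0, and reached the limit on array 2 alone. MiR-30a* (19.94 and 20.03), miR-30e* (20.59 and 20.01) and miR-27a* (21.4 and 21.9) followed, with signals of 16.2 and 19.7, 9.65 and 9.60, and 16.8 and 15.7. All of these signals lay within the range of the miRNAs that neither platform detected, and all but that of miR-149 on array 2 were below 32.

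Over the 78, ΔCt ran from 4.63 to 20.6 with a median of 12.9, against 1.87 to 17.6 with a median of 7.59 for the 18. Their signals ranged from 4.64 through a median of 14.1 to 34.9 on array 1 and from 4.14 through 19.3 to 59.1 on array 2. The 81 miRNAs detectable by neither had signals of 4.20, 13.5 and 38.1 on array 1 and of 1, 17.1 and 48.0 on array 2. Both classes were set by a signal under 32 on at least 1 array, so their ranges were bound to overlap.

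The hairpin families that follow were represented by star strands, except for miR-378. In each family, counts are read beside the 53.0% of all matched miRNAs that the cards and the 12.2% that the microarray detected. MiR-17-92 and its sister clusters drive proliferation, and of their 8 matched strands the cards detected 5, from miR-93* (ΔCt 8.30) to miR-17* (14.4), and the microarray 0. Of 5 of the miR-15/16 family, which restrains the cell cycle, all 5 were detectable by the cards, miR-15b* at a ΔCt of 8.91, miR-322* at 9.76, miR-503* at 11.1, miR-15a* at 11.6 and miR-16* at 13.6, and only miR-322* by the microarray. Of 7 let-7 strands, 6 were detectable by the cards, led by let-7a* (9.21), and only let-7d* by the microarray. The cards detected 3 of 3 miR-29 strands (10.0 to 18.1), 2 of 5 miR-30 strands and 2 of 2 of the hairpins of miR-99, miR-100 and miR-125 (10.0 and 15.4), and the microarray 0 of each. Both platforms detected miR-378, and the cards alone its partner miR-378* (25.8 and 26.1, with signals of 22.6 and 49.1).

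Clusters known for other cell types are read beside the same 53.0% and 12.2%, and beside the 44.8% of all matched miRNAs that neither platform detected. Of 9 strands from the embryonic stem cell clusters, which mark pluripotent cells, 0 were detectable by either. Of 18 from the imprinted Dlk1-Dio3 region, miR-673-5p was detectable by the cards (31.4 and 30.7) and miR-299* and miR-382* by the microarray, with none shared. Of 9 from the repeats in an intron of Sfmbt2, the cards detected 4, led by miR-466d-3p (23.3 and 23.5), and the microarray 0. Of 4 from the X-linked testis cluster, the cards detected miR-878-3p (30.4 and 30.7) and miR-470* (34.3 and 30.5), whose cards differed by 3.76 cycles, and the microarray 0. The card counts of the Sfmbt2 repeats and the testis cluster lay near the share of all matched miRNAs.

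MiRNAs in the number range of miR-676 to miR-721, a list taken for its names alone, made up 33 of the 181 matched and 7 of the 22 detectable by the microarray, 6 of which the cards detected too (miR-709, miR-720, miR-699, miR-690, miR-702 and miR-715). The cards detected 17 of the 33. The list supplied 6 of the 18 miRNAs seen by both, among them the most abundant one.

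A total of 4 miRNAs were detectable by the microarray only, and all were undetermined on both pre-amplified cards and also without pre-amplification. MiR-762 had signals of 267 and 274, rank 6 of all matched probes, and its probe target holds 81.8% G and C. MiR-712* had signals of 102 and 92.3, miR-382* of 38.2 and 66.6 and miR-299* of 37.9 and 40.6. The 2 arrays agreed to within 1.07-fold for miR-762 and miR-299*, and only miR-762 and miR-712* exceeded 3 SD of the empty spots on both arrays.

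Star strands and the other miRNAs split differently between the platforms. The cards detected 62 of 110 star strands (56.4%, 95% Wilson interval 47.0 to 65.3) and 34 of 71 others (47.9%, interval 36.7 to 59.3), and the microarray 9 star strands (8.18%) and 13 others (18.3%). Of the miRNAs the cards detected, the microarray showed 6 of 62 star strands (9.68%, interval 4.51 to 19.5) but 12 of 34 others (35.3%, interval 21.5 to 52.1), so that these intervals did not overlap. The median ΔCt was 12.1 for these 62 star strands and 12.3 for these 34 others. These medians do not show that the levels were spread alike. Among the others the median was 6.02 for the 12 shown by both platforms and 15.2 for the 22 by the cards only. Among the star strands it was 9.61 for 6 and 12.5 for 56. No test was made, because strands of 1 RNA are not replicates.

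The microarray carried the guide of most star strands. For 60 star strands that the cards detected and whose guide had a probe, the guide alone was detectable on the microarray in 33, both strands in 4, the star strand alone in 2 and neither in 21. The 4 were let-7d*, miR-24-2*, miR-27b* and miR-674*, and the star strands shown on the microarray without their guide were miR-34c* and miR-322*. MiR-34c, the guide, had signals of 26.4 and 11.1 against 107 and 120 for miR-34c*, and miR-322 had 25.3 and 27.2 against 83.7 and 87.2 for miR-322*. These strands did not overlap on either array, but the signals come from different probes, each of which also depends on its own hybridization. The same holds for Ct values of different assays. Array A detected both guides, miR-34c at a mean Ct of 33.2 (ΔCt 13.5) and miR-322 at 28.8 (ΔCt 9.18). On pre-amplified Array B the ΔCt was 9.46 for miR-34c* and 9.76 for miR-322*, on cards that differ in primer pool and amplification. MiR-31, partner of miR-31*, had signals of 3155 and 1984, and miR-21, a common miRNA of dividing cells, had 21049 and 20480 while miR-21* was at 15.7 and 24.0 with a ΔCt of 14.3.

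Near-identical star strands could be set side by side. MiR-30a* and miR-30e*, which differ at 1 base, had ΔCt values of 6.08 and 6.39, less apart than the cards of miR-30e* were, and neither reached the signal limit. Whether either assay reads the other strand was not tested. MiR-24-1* and miR-24-2* share their first 16 bases and differ after them. Their ΔCt was 18.1 and 7.19, and their signals were 18.7 and 21.1 against 68.8 and 113, so that both platforms put miR-24-2* higher, without overlap. MiR-467a* and miR-467b*, which differ at 1 base, had ΔCt values of 10.5 and 12.5, and reached the limit on array 2 alone with signals of 33.4 and 59.1. MiR-376b* and miR-376c*, which differ at 1 base, were both undetermined on both cards. Some other close strands lay farther apart. MiR-467e*, which differs from miR-467a* at 2 bases, was undetermined on both cards, and let-7b* and let-7f*, which differ at 2 bases, had mean Ct values of 36.9 and 30.6.

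By G and C content of the target, the microarray showed 2 of 24 card-detected miRNAs (8.33%, 95% Wilson interval 2.32 to 25.8) with 45% G and C or less, 10 of 44 (22.7%, interval 12.8 to 37.0) with more than 45% and up to 55%, and 6 of 28 (21.4%, interval 10.2 to 39.5) with more than 55%. These intervals overlapped. The median ΔCt of these 24, 44 and 28 was 11.0, 13.2 and 11.8.

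Across the 18 miRNAs detectable by both, mean ΔCt and mean log2 signal had a Pearson's r of -0.61 and a Spearman's rho of -0.50. A negative r is the direction of agreement here, since abundant miRNAs have a low Ct. The points share the same 4 libraries and 1 RNA, so the values are descriptions and no p is given. Each card against each array gave an r between -0.58 and -0.62. The 2 cards correlated with each other at 0.996 over the same 18, and the 2 arrays at 0.93 with a rho of 0.69, both larger in size than the values between the platforms.

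The relation rested in part on the leading pair. Without miR-206 and miR-709, the farthest in signal, r was -0.46 and rho -0.29 (n = 16). Without let-7d* and miR-715, the farthest in ΔCt, r was -0.67 (n = 16). Among the 12 that are not star strands r was -0.64, whereas among the 6 star strands it was 0.058, over a range of log2 signal of only 5.34 to 6.81. Over all 96 miRNAs that the cards detected r was -0.53 and rho -0.43, and over the 78 that the microarray did not show r was -0.27, where the 2 arrays correlated with each other at only 0.46.

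**Figure D2:**
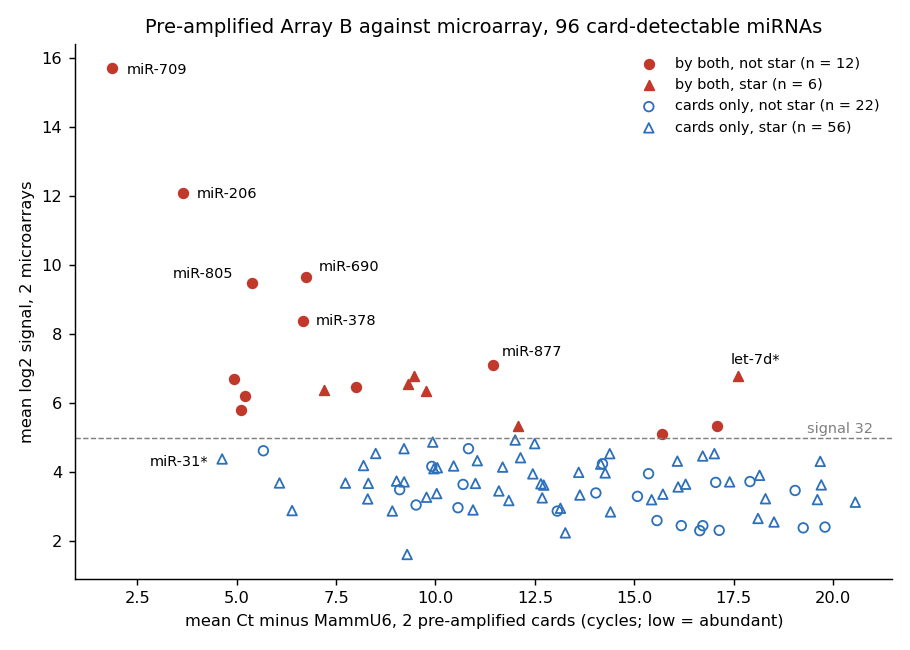
Mean ΔCt on the 2 pre-amplified cards (cycles, low values mean abundance) against mean log2 signal on the 2 microarrays for the 96 miRNAs that the cards detected, 18 by both platforms (filled) and 78 by the cards only (open), with star strands as triangles and a dashed line at a signal of 32. MiR-709 and miR-206 stand at the upper left, and the open points stay below the line across ΔCt values of 4.63 to 20.6.

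In units, log2 signal across the 18 fell by 0.36 per cycle of ΔCt, where a change of 1 per cycle would mark equal scales under full amplification in every cycle. The 18 spanned 15.7 cycles on the cards and 10.6 log2 units on the arrays, the latter with miR-709 near the top of the intensity range.

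The share of card-detected miRNAs that the microarray also showed depended on ΔCt, in bands that were chosen after the values were seen. At a ΔCt of 8 or less it was 10 of 15 (66.7%, 95% Wilson interval 41.7 to 84.8), from 8 to 12 it was 4 of 31 (12.9%, interval 5.13 to 28.9), from 12 to 16 it was 2 of 25 (8.00%) and above 16 again 2 of 25. The 5 miRNAs missed in the lowest band were miR-31*, miR-149, miR-30a*, miR-30e* and miR-27a*. The 4 shown beyond a ΔCt of 12 were miR-27b*, miR-702, miR-715 and let-7d*.

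Pre-amplification added miRNAs that the microarray mostly did not show. Without it Array B detected 54 of the 181 (29.8%), 15 of them also on the microarray (27.8% of 54), against 18 of 96 (18.8%) with it. Pre-amplification thus brought 42 miRNAs below the limit, and 3 of them (7.14%), let-7d*, miR-702 and miR-715, were on the microarray. Over the 15, r was -0.64 without and -0.67 with pre-amplification. ΔCt of 14 of these 15 moved by -1.08 to 0.46 cycles on pre-amplification, and miR-378 by 3.04, which took it from a ΔCt of 3.62 to 6.66.

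Array A stood higher at like ΔCt. In the same bands the microarray showed 30 of 32 (95% Wilson interval 79.9% to 98.3%), 44 of 80 (interval 44.1% to 65.4%) and 12 of 61 (interval 11.6% to 31.3%) of its card-detected miRNAs. Over the 86 of Array A detectable by both platforms r was -0.42, and over its 173 card-detected miRNAs -0.60. The interval of 8 to 12 cycles was the one where the intervals of Array A and pre-amplified Array B did not overlap, but ΔCt was set within cards that differ in primer pool and amplification, so that equal ΔCt need not mean equal abundance, and the difference was not tested. Array B without pre-amplification had 6 of 31 (interval 9.19% to 36.3%) in that band and 9 of 16 (interval 33.2% to 76.9%) at a ΔCt of 8 or less, both clear of Array A.

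**Figure D3:**
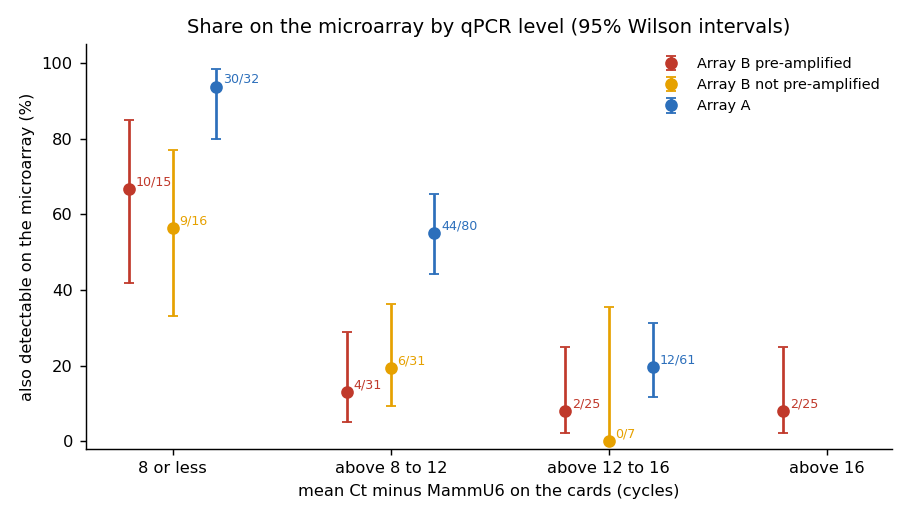
Share of card-detected miRNAs that the microarray also showed (percent, vertical axis) by ΔCt band in cycles, for pre-amplified Array B, Array B without pre-amplification and Array A, with the counts beside each point and 95% Wilson intervals as bars. All 3 are highest at a ΔCt of 8 or less. Pre-amplified Array B drops from 10 of 15 to 4 of 31 past a ΔCt of 8 and is at 2 of 25 in both bands above 12.

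The platforms have no common unit, so the place of each miRNA among the 18 was compared instead. The sign of ΔCt was turned. Within each card and each array, values were centred on the mean of the 18 and divided by their SD. Microarray minus cards was then tested with limma, with the same spread assumed for cards and arrays. Over the 18 the cards correlated at 0.996 and the arrays at 0.93, so the arrays varied more and the p-values rest on that assumption. Of 18 tested, 11 (61.1%) differed at a Benjamini-Hochberg adjusted p under 0.05, 6 placed higher on the microarray (33.3%) and 5 lower (27.8%), and 13 had an unadjusted p under 0.05. The split between higher and lower depended on the scale: scaled by the median and the median absolute deviation it was 9 to 2, with normal scores of the ranks 5 to 0 (1 of the 11 calls kept), and with scanner densities after normexp and quantile normalization 6 to 9. Without pre-amplified card 1 the count was 3 and without card 2 it was 1, the lone card being assumed to vary like the arrays. Without microarray 1 it was 21 of 24 and without microarray 2 17 of 20, the lone array being assumed to vary like the cards.

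Let-7d* stood higher on the microarray. Its z scores were -2.07 and -1.83 on the cards and -0.61 and 0.03 on the arrays, a difference of 1.66 ± 0.274 (SE; limma, adjusted p = 0.0147). For miR-715 they were -1.69 and -1.97 on the cards and -0.71 and -0.91 on the arrays, a difference of 1.02 ± 0.145 (limma, adjusted p = 0.0126). MiR-877 was 0.43 ± 0.0472 higher (limma, adjusted p = 0.0108). None of the 3 overlapped between the platforms. Of the other miRNAs compared, only miR-27b*, miR-690 and miR-805 did overlap, so non-overlap does not set the 3 apart. The differences of the 3 stayed above 0 in every other setting that held them, from 0.25 to 2.76. The call itself held in 8 of 11 such settings for let-7d*, 9 of 11 for miR-715 and 12 of 14 for miR-877, and was lost by rank for let-7d* (limma, adjusted p = 0.208) and miR-715 (0.792). Let-7d* and miR-715 had the lowest mean z scores on the cards and entered only with a signal of at least 32 on both arrays. Of 25 card-detected miRNAs with a ΔCt above 16, only these 2 did so. MiR-877 also had card z scores below 0, at -0.62 and -0.57. It lies in the ΔCt band of 8 to 12, where 4 of 31 reached that limit on both arrays. Such a selection favours a higher place on the microarray, so the test cannot tell it from a difference between the platforms. Its share in these calls was not tested.

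MiR-709 was 1.46 ± 0.0370 higher on the microarray (limma, adjusted p = 4.69e-04), with z scores of 1.51 and 1.50 on the cards and 2.96 and 2.97 on the arrays, although it was first in all 4 libraries, its difference by rank was 0, and its spots lay near the top of the intensity range. MiR-206 was 0.53 ± 0.0805 higher (limma, adjusted p = 0.0126), was likewise second in all 4 with a difference of 0 by rank, and had a difference of -0.16 with a signal limit of 100. MiR-702 was 0.63 ± 0.0374 higher (limma, adjusted p = 0.00327) but -0.14 by rank. The placements of these 3 therefore turned on the scale. MiR-702 also had the next lowest mean z score on the cards after let-7d* and miR-715, so the same selection by signal applies to it.

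On the lower side, miR-699 had z scores of 0.80 and 0.78 on the cards and -0.38 and -0.91 on the arrays, a difference of -1.44 ± 0.216 (limma, adjusted p = 0.0126). For miR-720 they were 0.81 and 0.85 on the cards and -0.22 and -0.41 on the arrays, a difference of -1.14 ± 0.0868 (limma, adjusted p = 0.00468). MiR-24-2* differed by -0.77 ± 0.0938 (limma, adjusted p = 0.0117). These 3 stayed below 0 in every other setting that held them, but kept the call in 8 of 13 for miR-699, 11 of 13 for miR-720 and 7 of 13 for miR-24-2*, and lost it by rank (limma, adjusted p = 0.167, 0.121 and 0.359). MiR-22 differed by -0.56 ± 0.0792 (limma, adjusted p = 0.0126) and miR-322* by -0.21 ± 0.0374 (limma, adjusted p = 0.0158), but both turned above 0 in at least 1 setting. MiR-322* also passed above 0, at 0.15 with normal scores (limma, adjusted p = 5.96e-04) and at 0.75 without pre-amplification (limma, adjusted p = 9.04e-04).

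The other 7 did not pass. MiR-374 had the lowest difference among them, -1.28 ± 0.363 (limma, adjusted p = 0.0545), with arrays at -0.95 and -0.05 that lay far apart and yet below both cards at 0.77 and 0.78, and it passed with the same sign in 6 of 13 other settings. MiR-690 was at 0.33 ± 0.292 (limma, adjusted p = 0.363), its arrays at 1.13 and 0.40 on both sides of the cards at 0.45 and 0.43. MiR-805, miR-27b*, miR-34c*, miR-378 and miR-674* lay between -0.24 and -0.04, and each changed sign in at least 1 setting. Over the settings miR-34c*, miR-805 and miR-27b* passed in both directions, miR-27b* below 0 only without microarray 1. MiR-378 passed in 7 of 14 settings, in both directions, from -0.96 without pre-amplification (limma, adjusted p = 5.00e-04) to 0.80 by median and median absolute deviation (limma, adjusted p = 0.0305).

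**Figure D4:**
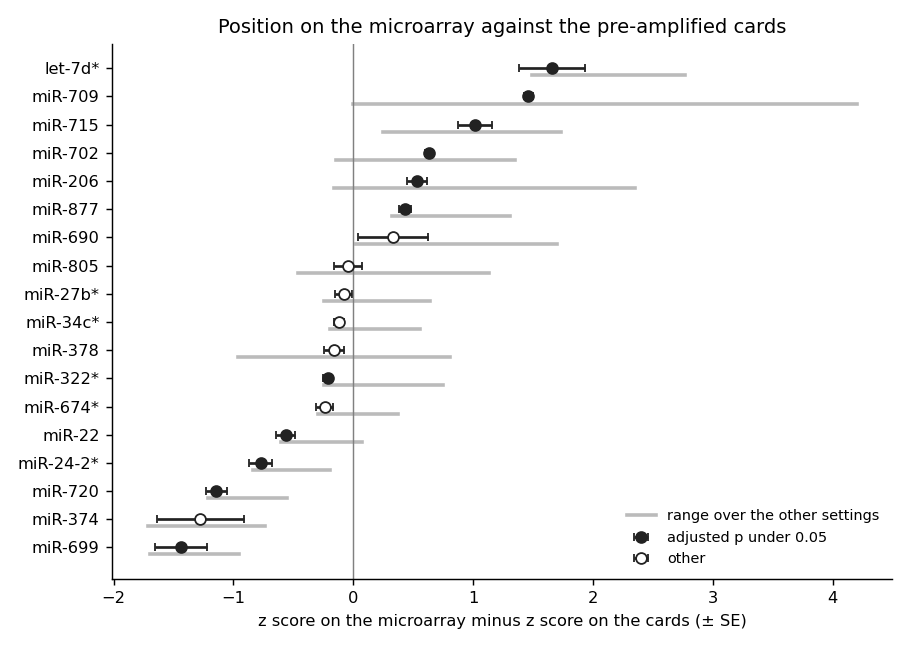
Difference in z score, microarray minus pre-amplified cards, for the 18 miRNAs detectable by both platforms (points with SE bars, filled where limma's adjusted p was under 0.05), with grey lines for the range over the other settings that held the miRNA. Let-7d*, miR-715 and miR-877 stay above 0 and miR-699, miR-374, miR-720 and miR-24-2* below it, whereas the lines of miR-805, miR-378 and miR-322* cross it.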

How the data were processed

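The authors deposited a raw Ct for each assay (a score in cycles, 40 where undetermined, with the baseline set automatically and 1 threshold for all assays) and this score minus MammU6. For microarrays they deposited a background-subtracted intensity per spot, set to 1 where less was left, and scanner densities. Raw Ct was used, because the deposited differences departed from it for miR-30a* (-0.267) and U87 (-3.22) on pre-amplified card 1. Log2 was taken of the deposited intensities and averaged over 5 spots and 2 arrays. The limits were a mean Ct of 35 and an intensity of 32 on both arrays. For positions, limma 3.58.1 (R 4.3.3) was used with Benjamini-Hochberg adjustment, after a check on simulated data. Other steps used Python 3.11.15, pandas 2.3.3 and matplotlib 3.10.9. Intervals are 95% Wilson intervals.

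The miRNAs, lists and tests were chosen with earlier results of these data known. The rule named the 10 lowest ΔCt and 10 highest signals, the 10 largest position differences each way past the threshold, the 5 leading miRNAs of each platform alone, 2 on each side of each limit and list members. MiR-21, the guides, and as pairs miR-467a* with miR-467b* and miR-376b* with miR-376c*, were named after their values were seen. So were 4 of the alternatives.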

Additional observations from a re-analysis of the deposited data

How the results depend on the processing

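Detection, correlation and position were recomputed under other limits, scales and sets of libraries, 4 of which were chosen after seeing the data. A signal limit of 100 left 7 miRNAs detectable by both and 1 by the microarray only, and over the 7 r was -0.91 and rho -0.86. By the microarray only, 8 were detectable with the mean of both arrays at 32, 7 without pre-amplification (and 39 by the cards only) and 2 above 3 SD of the empty spots, a limit added later. Leaving out each card or array in turn gave 18 to 24 by both, 72 to 83 by the cards only and 4 to 10 by the microarray only, the most without array 1. Pearson's r was -0.67 at a Ct limit of 30, -0.53 with no signal limit, -0.64 without pre-amplification, -0.58 with scanner densities and -0.46 without miR-709 and miR-206 (added later), and Spearman's rho was -0.43 with no signal limit and -0.29 without those miRNAs. Leaving out each library gave an r of -0.62 to -0.59 and a rho of -0.61 to -0.50. Every r and rho stayed below 0.

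The count of miRNAs differing in position (11 of 18, by limma) was 5 with normal scores, of which 1 was among the 11, 9 of 17 with miR-709 left out (added later), 4 of 7 at a signal limit of 100, 58 of 96 over every miRNA the cards detected (added later) and 1 to 21 without 1 library. Same-numbered cards and arrays share only a number, with deviations that correlated at 0.38 over 1 pair, and with it as a replicate block 7 passed, 5 higher and 2 lower. Over 14 alternatives, 6 of the 11 called miRNAs and 8 of all 18 kept their sign wherever they were tested. Those that turned did so as follows. With normal scores miR-322* was at 0.15, miR-34c* at 0.42, miR-378 at 0.31, miR-674* at 0.061, miR-702 at -0.14 and miR-805 at 0.45. By median and median absolute deviation miR-27b* was at 0.35, miR-322* at 0.36, miR-34c* at 0.56, miR-378 at 0.80, miR-674* at 0.37 and miR-805 at 1.13. At a Ct limit of 30 miR-27b* was at 0.40, miR-322* at 0.11, miR-34c* at 0.18 and miR-674* at 0.050. At a signal limit of 100 miR-206 was at -0.16, and with scanner densities miR-27b* was at 0.080. Without pre-amplification miR-22 was at 0.073, miR-27b* at 0.64, miR-322* at 0.75, miR-34c* at 0.35, miR-674* at 0.15 and miR-805 at 0.011. Without either microarray in turn miR-805 was at 0.20 and -0.15 and miR-27b* at -0.11 and 0.084. Over all 96 miR-22 was at 0.030, miR-27b* at 0.42, miR-322* at 0.38, miR-34c* at 0.52, miR-378 at 0.63, miR-674* at 0.38 and miR-805 at 0.86. With miR-709 left out miR-378 was at 0.10 and miR-805 at 0.39. The cause was not tested. With 2 cards and 2 arrays of 1 RNA, and a signal limit near the spread of empty spots, changes among dim probes were not resolvable.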
